A study of Mus musculus with 6 samples.

Results

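The 8 long noncoding RNAs described here are rows of the gene table chosen by symbol, 8 of 53715 genes. Malat1 and Neat1 are retained in the nucleus, Meg3, Rian, Mirg and Kcnq1ot1 come from imprinted loci, and Gas5 and Snhg1 are hosts of small nucleolar RNAs (snoRNAs). Each symbol matched 1 row, and all 8 were among the 26559 genes that passed the filter on low counts. The libraries hold total RNA of cells sorted as pericytes, the mural cells of capillaries, from the gastrocnemius-soleus complexes of male wild-type C57BL/6J mice aged 14 weeks. In 3 stimulated mice an electrical bout of about 10 minutes made the crural muscles, which move the foot, contract 40 times, 20 times eccentrically and 20 concentrically, and tissue was taken 3 hours later. The 3 sham mice received no stimulation, and all 6 populations passed the same gate, CD146+, CD45- and CD31-. The comparison asks whether these RNAs differed between the groups at that time, and which of their transcripts carried the reads.

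Malat1 concentrates in nuclear speckles, which store splicing factors, and the long form of Neat1 is the scaffold of paraspeckles, which hold back proteins and edited RNAs in the nucleus. Meg3, Rian and Mirg lie in a row on the maternally expressed strand of the Dlk1-Dio3 locus and contain miRNAs and snoRNAs in their introns, whereas Kcnq1ot1 is made from the paternal chromosome, antisense to Kcnq1, and silences its neighbours. Gas5 and Snhg1 encode no known protein. Their introns release snoRNAs of the box C/D class, most of which guide methylation of ribosomal RNA. The spliced RNAs of both hosts begin with a pyrimidine tract and are removed by nonsense-mediated decay when ribosomes engage them.

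The sequences of 5 snoRNAs hosted by Gas5 and Snhg1 are shown. Of the 13 hosted snoRNAs with a mean of at least 10 reads, 11 had stimulated values that all lay above the sham values. The same held for 38.8% of other snoRNA genes and 6.17% of all genes with that mean. Some of the 11 reached that mean through their stimulated reads, as given below. Both hosts overlapped, as did Snord22, 1 of the 5 shown. The sequences were read from the GENCODE M21 transcripts (GRCm38). Gm22357 lies at chr1:161036057-161036139, Snord80 at chr1:161037601-161037681 and Snord47 at chr1:161038082-161038158, all inside Gas5 on the plus strand. Gm25855 lies at chr19:8723993-8724064 and Snord22 at chr19:8725866-8725991, both inside Snhg1 on the plus strand. Capitals mark TGATGA (the core of the C box) within the first 25 bases and CTGA (the D box) within the last 25 bases of each annotated RNA, searched on the RNA's own strand.
Gm22357: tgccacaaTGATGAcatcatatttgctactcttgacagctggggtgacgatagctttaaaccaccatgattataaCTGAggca
Snord80: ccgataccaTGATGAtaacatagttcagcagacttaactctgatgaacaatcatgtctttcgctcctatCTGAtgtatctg
Snord47: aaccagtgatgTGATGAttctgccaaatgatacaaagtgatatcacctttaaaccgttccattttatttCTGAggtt
Gm25855: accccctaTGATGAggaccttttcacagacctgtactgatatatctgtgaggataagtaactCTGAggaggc
Snord22: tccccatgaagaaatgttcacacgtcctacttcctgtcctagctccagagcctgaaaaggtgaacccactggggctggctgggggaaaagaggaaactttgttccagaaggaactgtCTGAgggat
Both boxes were found in 14 of the 18 snoRNA genes annotated inside Gas5 and Snhg1, against 312 of 1507 annotated mouse snoRNA transcripts (20.7%), which include the other snoRNA classes. Snord22 was 1 of the 4 in which the exact TGATGA was not in the window searched.

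The first bases of the 2 hosts are shown for the pyrimidine tract. They were read from RefSeq (GRCm38.p6), each with 20 bases before and 40 bases from the annotated start. Gas5 spans chr1:161035146-161035205 with its start at 161035166, a start that 11 annotated Gas5 transcripts share within 15 bases. Snhg1 spans chr19:8723467-8723526 with its start at 8723487, shared by 3 transcripts. Capitals mark the longest run of C and T in the window from 10 bases before to 20 bases after the start.
Gas5: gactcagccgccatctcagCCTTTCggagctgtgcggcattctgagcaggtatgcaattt
Snhg1: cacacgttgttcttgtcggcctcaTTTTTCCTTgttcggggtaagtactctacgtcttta
The run was 6 bases in Gas5, beginning at the base before the start, and 9 bases in Snhg1, beginning at position 5. Of 32851 mouse promoters, 28.7% held a run of at least 6 bases in the same window and 7.11% a run of at least 9 bases. Another annotated Gas5 start, at 161034601 with 1 transcript within 15 bases, is not shown. Its longest run was 3 bases, a length that 88.3% of promoters reached.

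The number of estimated reads was 18204991 to 23709220 in stimulated and 17520338 to 21825118 in sham libraries, of which mitochondrial genes took 10.24 to 14.0%. Transcripts of the antigens excluded by the gate were abundant: Ptprc (CD45) stood at 989 to 1035 CPM (counts scaled to the size of the library) in stimulated and 194 to 863 CPM in sham libraries and Pecam1 (CD31) at 384 to 577 CPM and 524 to 1277 CPM, against 24.3 to 54.1 CPM and 39.1 to 105 CPM for Mcam (CD146). Sham replicate 2 stood apart, with summed lymphocyte markers at 265 CPM against 1542 to 2358 CPM in the other 5 libraries and summed endothelial markers at 14318 CPM against 3434 to 8378 CPM. None of the markers tested in these lists was at 0 in all 6 libraries. In bulk RNA of a sorted population, fewer cells of a type and less RNA per cell cannot be told apart, and this holds for every level below.

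None of the 8 genes differed between the groups by the test: edgeR's quasi-likelihood test with Benjamini-Hochberg adjustment over all genes called 0 of 8, and 0 of 8 had an unadjusted p under 0.05. Over all genes the adjusted test called 0% higher and 0% lower, and 7.05% had an unadjusted p under 0.05. Of the 8, 5 had a positive and 3 a negative fitted log2 fold change of stimulated over sham, beside 48% positive among all genes tested. Stimulated and sham values did not overlap for 1 of the 8, Malat1, beside 12% of all genes tested. Compared per length, in TPM (estimated molecules relative to all transcripts of a library), the order within a library was nearly the same in all 6. Malat1 was first (median 461 TPM over the 6 libraries) and Gas5 second (15.4 TPM) in each library. Snhg1 (3.92 TPM) and Neat1 (3.72 TPM) exchanged the next places between libraries, Rian was always after them (1.15 TPM), Meg3 (0.335 TPM) and Kcnq1ot1 (0.278 TPM) also exchanged places, and Mirg was always last (0.0422 TPM). TPM levels are set against each other only within a library here, since transcripts under 200 bases took 88.3 to 91.5% of all TPM. Each level sums all annotated transcripts of the gene, and much of it came from transcripts with fewer reads. The transcript with most reads had a median of 125 TPM in Malat1, 1.51 TPM in Gas5, 0.044 TPM in Rian and 0.0275 TPM in Meg3.

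**Figure D1:**
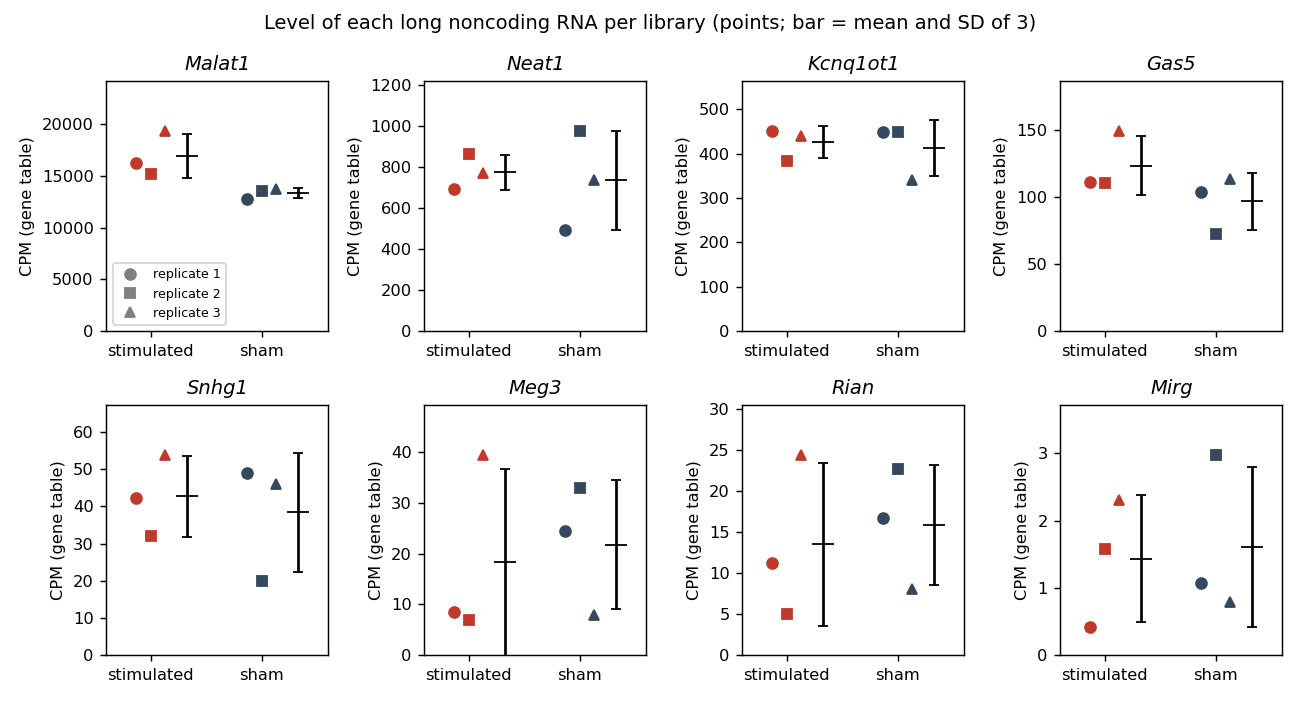
CPM of each of the 8 long noncoding RNAs in the deposited gene table, scaled by TMM, with 1 point per library (circle, square and triangle for replicates 1, 2 and 3) and a bar for the mean and SD of 3 libraries. Malat1 is the 1 panel in which the 3 stimulated points lie above the 3 sham points; the lower end of the stimulated Meg3 bar runs past 0.

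Malat1 (ENSMUSG00000092341.2, chromosome 19, 5795690 to 5802672, minus strand, GRCm38) was by far the most abundant of the 8. It stood at 16278, 15167 and 19336 CPM in the stimulated libraries, against 12821, 13538 and 13712 CPM in the sham libraries. The 3 stimulated values lay above the 3 sham values, which were close together. The means were 16927 ± 2159 CPM and 13357 ± 472 CPM (SD, n = 3 each), a log2 fold change of 0.34 (SE 0.30) that did not pass edgeR's quasi-likelihood test (adjusted p = 0.93). Groups that did not overlap in this direction were met in 6.12% of all genes tested. When the reads of its transcripts were summed without the length scaling of the gene table, Malat1 stood at 15618, 18850 and 17131 CPM after stimulation, against 12905, 15486 and 16721 CPM in sham. The groups then overlapped, since stimulated replicate 1 lay below sham replicate 3, and the log2 fold change was 0.19 (SE 0.33). From summed reads 6.08% of genes did not overlap in this direction, and edgeR called 0.00377% of genes in either direction and none of the 8. Malat1 alone took 1.65, 1.78 and 1.65% of all estimated reads in stimulated and 1.45, 1.63 and 1.44% in sham libraries.

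Of the 5 annotated Malat1 transcripts, the unspliced RNA of 6983 bases held most reads, 86.9 to 91.5% in stimulated and 89.6 to 91.6% in sham libraries. The 1 small RNA gene annotated within Malat1 (Gm27694) was at 0 in all 6 libraries. A count of 0 allows up to 3 counts, which is 0.171 CPM in the shallowest and 0.127 CPM in the deepest library, counting error only.

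Neat1 (ENSMUSG00000092274.2, chromosome 19, 5824708 to 5845478, minus strand), the paraspeckle scaffold, differed more among sham mice than between the groups. It stood at 691, 860 and 771 CPM in stimulated libraries, against 491, 974 and 738 CPM in sham libraries. The lowest and the highest value were both sham, in replicates 1 and 2, and the stimulated values lay between them. The log2 fold change was 0.08 (SE 0.31), and -0.03 from summed reads.

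Both forms of Neat1 were found in every library. The long form of 20771 bases took 73.1, 71.9 and 76.8% of Neat1 reads in stimulated libraries, against 83.4, 75.5 and 72.3% in sham libraries, and nearly all other reads were given to the short form of 3004 bases. Sham replicate 1, the library lowest in Neat1 by CPM (667 CPM from summed reads), had the largest share of the long form. By TPM sham replicate 3 was lowest in Neat1, at 3.06 TPM against 3.5 TPM in sham replicate 1. The mean difference of -3.13 percentage points had an exact permutation p of 0.6 (two-sided; 3 against 3 cannot go below 0.1). Per length the order was the reverse: the long form took 29.9, 30.2 and 33.2% of Neat1 TPM after stimulation and 44.7, 32.4 and 30.2% in sham. The short form lies within the 5′ end of the long one, so the split of their shared reads is an estimate. The 3 small RNA genes annotated inside Neat1 (Gm27533, Gm27505 and Gm28006) had fitted log2 fold changes of 0.13 to 0.34, with groups that overlapped for each.

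The protein genes of these bodies gave small differences. Of 19 tested paraspeckle genes, 16 were higher and 3 lower by fitted value, with a median log2 fold change of 0.06 beside -0.02 for all genes and 0 called. Pspc1, a core paraspeckle protein, stood at 74.4, 80.4 and 70.0 CPM in stimulated and 69.0, 51.7 and 69.2 CPM in sham libraries, so that the groups were just apart, with a log2 fold change of 0.24 (SE 0.23). Of 22 nuclear speckle genes, 18 were higher and 4 lower with a median of 0.15 and 0 called. Without sham replicate 2 the medians of the paraspeckle and speckle lists were -0.01 and 0.05, and without sham replicate 3 they were 0.27 and 0.28. Srrm2, which holds speckles together, had 0.35 (SE 0.29) and the splicing factor Srsf4 had -0.31 (SE 0.26).

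Other nuclear long noncoding RNAs spread more widely. Of 20 tested, 14 were higher and 6 lower, with a median of 0.25 and 0 called. The median was 0.09 without sham replicate 2 and 0.46 without sham replicate 1. Firre, which helps to anchor the inactive X chromosome, stood at 20.8, 33.6 and 37.6 CPM in stimulated libraries and 47.0, 79.3 and 41.5 CPM in sham libraries, groups that did not overlap, with a log2 fold change of -0.87 (SE 0.33, adjusted p = 0.67 by edgeR). Pvt1, the neighbour of Myc, did not overlap in the other direction (17.5 to 21 CPM against 7.15 to 14.0 CPM; 0.73, SE 0.31), nor did Mir22hg, the host of miR-22, at 0.50 (SE 0.26). Bvht, a noncoding RNA known from heart development, was apart in the same direction as Firre at -0.61 (SE 0.34), as was Dleu2.

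**Figure D2:**
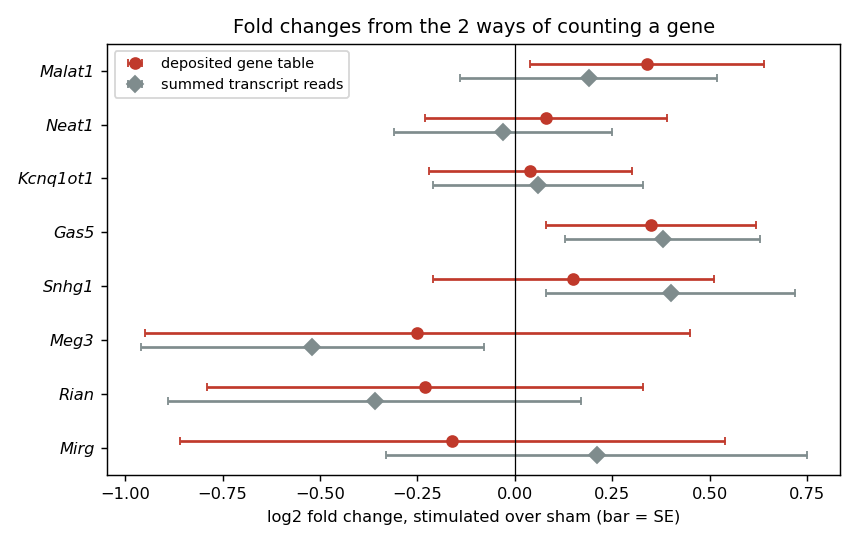
Log2 fold change of stimulated over sham for each of the 8 RNAs, with its SE as a bar, from the deposited gene table (circles) and from the summed reads of its transcripts (diamonds). The values run from -0.52 for Meg3 to 0.40 for Snhg1, both from summed reads; Neat1 and Mirg lie on opposite sides of 0 by the 2 ways of counting.

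The 3 RNAs of the Dlk1-Dio3 locus were the most variable of the 8, within both groups. Meg3 (ENSMUSG00000021268.17, chromosome 12, 109541001 to 109571726, plus strand) stood at 8.53, 6.80 and 39.5 CPM in stimulated libraries, against 24.5, 33 and 7.82 CPM in sham libraries. Stimulated replicate 3 and sham replicates 1 and 2 were high and the other 3 libraries low, so that the highest value was 5.81 times the lowest and the groups overlapped fully. Its log2 fold change was -0.25 (SE 0.70) in the gene table and -0.52 (SE 0.44) from summed reads. The gene table value changed with the library left out. It was -1.5 without stimulated replicate 3, 0.16 without stimulated replicate 1 or 2, and 0.20 without sham replicate 2.

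Rian (ENSMUSG00000097451.10, chromosome 12, 109603940 to 109661716, plus strand), the RNA next along the locus and host of a snoRNA cluster, stood at 11.2, 4.93 and 24.4 CPM in stimulated libraries, against 16.7, 22.7 and 8.09 CPM in sham libraries. The same 3 libraries were highest as for Meg3, and the groups overlapped. Its log2 fold change was -0.23 (SE 0.56), -0.98 without stimulated replicate 3 and 0.14 without sham replicate 2. Mirg (ENSMUSG00000097391.8, chromosome 12, 109729764 to 109749460, plus strand), which contains a miRNA cluster, had 15, 24 and 52 reads in stimulated libraries, against 22, 34 and 17 reads in sham libraries. At 0.421, 1.58 and 2.30 CPM against 1.07, 2.98 and 0.788 CPM, the highest library of each group was again stimulated replicate 3 and sham replicate 2, and the groups overlapped. The log2 fold change of Mirg was -0.16 (SE 0.70) in the gene table and 0.21 (SE 0.54) from summed reads.

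Among 9753 genes whose log2 CPM averaged 3 or more, the 3 whose pattern over the 6 libraries was closest to that of Meg3 were Rbms3, an RNA-binding protein, Plod2, a collagen lysyl hydroxylase, and Rian itself, each at a root mean square distance of 0.38 on the centred log2 CPM scale. Rbms3 stood at 5.06, 5.72 and 18.0 CPM in stimulated and 14.5, 23.0 and 8.03 CPM in sham libraries. Mirg lay at 0.78 from Meg3, Gas5 at 1.11 and Malat1 at 1.03. This is a description over 6 libraries, whose cell mixtures differ. Markers of fibro-adipogenic progenitors, the stromal cells of muscle, were lower after stimulation in 11 of 12 by fitted value, with a summed level of 1166, 1402 and 2961 CPM in stimulated and 1884, 3974 and 2812 CPM in sham libraries. Tenocyte markers, lower in 7 of 8, summed to 44.2, 86.8 and 358 CPM in stimulated and 194, 215 and 153 CPM in sham libraries. Pericyte markers, lower in 14 of 15, summed to 229, 280 and 513 CPM in stimulated and 402, 845 and 470 CPM in sham libraries. All 3 lists were lowest in stimulated replicates 1 and 2, as Meg3 was lowest in those 2 and sham replicate 3, and none of their markers was at 0 throughout. The part of these cells in the values of Meg3, Rian and Mirg was not tested.

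**Figure D3:**
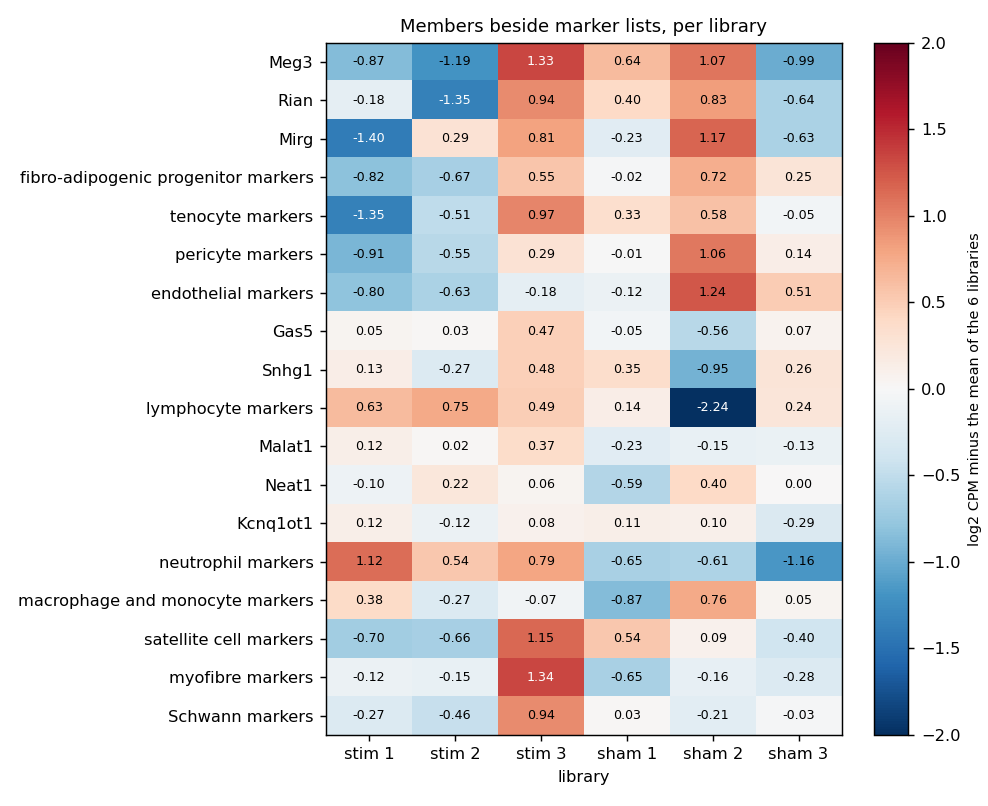
Log2 CPM of the 8 RNAs and mean log2 CPM of 10 marker lists in each library, minus the row's own mean over the 6 libraries, with stimulated libraries on the left and colours that stop at ±2. Meg3 is at -0.87, -1.19 and 1.33 in stimulated and 0.64, 1.07 and -0.99 in sham libraries, while Kcnq1ot1 stays between -0.29 and 0.12; lymphocyte markers reach -2.24 in sham replicate 2, where Snhg1 is at -0.95 and Gas5 at -0.56.

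Transcript models of the locus carried few reads. Of the 11 annotated Meg3 transcripts, the 1 of 14548 bases held 67.6 ± 9.09% of Meg3 reads after stimulation and 71.6 ± 5.02% in sham, and the 1 of 1498 bases held 15.7 ± 1.89% and 11.8 ± 2.33% (SD, n = 3 each). Rian reads were spread over 20 transcripts, the largest share going to the RNA of 8089 bases with 28.8 ± 11.4% in stimulated and 28.0 ± 2.04% in sham libraries. Mirg reads were too few to assign: 1 transcript of 3822 bases took 18.6 to 45.2% in stimulated libraries and was at 0 in all 3 sham libraries, while another of 3797 bases, which differs little from it in span, was at 0 in all 3 stimulated libraries and took 37.1, 33.9 and 0% in sham. Of the 35 small RNA genes annotated inside Meg3, Rian and Mirg on the same strand, 20 were at 0 in all 6 libraries, among them 13 of the 20 miRNA genes, and the highest value was 7 reads. The miRNA genes are annotated at 66 to 120 bases. The shorter mature miRNAs have no rows of their own, so their levels are not given by these values. The snoRNA cluster of Rian, 13 genes, had at most 2.93 reads in any library.

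The protein-coding genes of the locus were scarce as well. Dio3, which inactivates thyroid hormone, stood at 0.632, 0.887 and 0.619 CPM in stimulated libraries, against 0.178, 0.108 and 0.210 CPM in sham libraries. Those groups did not overlap, as in 6.12% of all genes tested in this direction. The log2 fold change was 2.06 (SE 0.70, adjusted p = 0.62 by edgeR). Dio3 reached the level of the filter in the stimulated libraries alone, so its direction was in part set by the filter. Rtl1, a retrotransposon-derived gene, had -0.80 (SE 0.50) and Dlk1, a Notch-related inhibitor of differentiation, -0.50 (SE 0.43), both with groups that overlapped. These 3 had a median of -0.50, with 1 higher, 2 lower and 0 called, and the median was -0.91 without stimulated replicate 1 and -0.26 without stimulated replicate 2.

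Kcnq1ot1 (ENSMUSG00000101609.2, chromosome 7, 143203458 to 143296549, minus strand) was the steadiest of the 8 in the gene table, by its highest over its lowest value. The single annotated RNA of 93092 bases stood at 451, 384 and 441 CPM in stimulated libraries, against 449, 448 and 340 CPM in sham libraries. The groups covered nearly the same range, the highest value being 1.33 times the lowest, and the log2 fold change was 0.04 (SE 0.26). From summed reads Kcnq1ot1 ran from 315 to 467 CPM and Malat1 from 12905 to 18850 CPM, and Kcnq1ot1 was not the steadiest. Kcnq1, the potassium channel gene it overlaps on the other strand and helps to imprint, stood at 5.48, 2.37 and 4.38 CPM after stimulation and 3.78, 9.42 and 16.5 CPM in sham, with -1.28 for the log2 fold change (SE 0.53, adjusted p = 0.68 by edgeR) with overlapping groups. Cdkn1c, a cell cycle inhibitor silenced by Kcnq1ot1 on the paternal chromosome, stood at 14.9, 27.5 and 36.9 CPM after stimulation and 25.4, 104 and 55.7 CPM in sham (-1.22, SE 0.50), again with overlap. The library kit keeps strand information, but whether the authors' quantification used it is not given in the sources used here, so reads of Kcnq1ot1 and Kcnq1 may not be fully separated.

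Other imprinted genes were lower more often than higher: 21 of 30 lower and 9 higher by fitted value, with a median of -0.33 and 0 called. The median was -0.16 without sham replicate 2 and -0.20 without stimulated replicate 2. Groups did not overlap for 5 in the lower direction (Mest, Ndn, Igf2r, Airn and Slc22a18) and 2 in the higher (Zim1 and Plagl1), beside the 12% of all genes given above. Mest, a paternally expressed hydrolase-like gene, stood at 6.95, 7.34 and 7.51 CPM in stimulated and 10.2, 18.6 and 11.3 CPM in sham libraries, with a log2 fold change of -0.88 (SE 0.31), and Ndn, a growth suppressor, had -0.87 (SE 0.38). The endothelial markers, 16 of 16 lower with summed levels of 3434 to 5404 CPM in stimulated and 5683 to 14318 CPM in sham libraries, were lower in the same libraries. The stromal markers above were not: in stimulated replicate 3 they lay within or above the sham values. The part of either in the imprinted genes was not tested. Of 14 genes for chromatin silencing partners, 11 were higher and 3 lower with a median of 0.13 and 0 called, and with medians of 0.05 to 0.21 with 1 library left out. Dnmt3a, a DNA methyltransferase, had 0.35 (SE 0.26), and 0.02 from summed reads. Eed, a Polycomb subunit, had 0.28 (SE 0.23) and was the gene with the pattern closest to Malat1, at a distance of 0.05, followed by Eif1a (0.06) and Nr1h2 (0.07).

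Gas5 (ENSMUSG00000053332.13, chromosome 1, 161034422 to 161038539, plus strand) stood at 111, 110 and 149 CPM in stimulated libraries, against 104, 72.7 and 113 CPM in sham libraries. Sham replicate 2 was lowest and stimulated replicate 3 highest, and the groups overlapped because sham replicate 3 exceeded 2 stimulated libraries. The means were 123 ± 22.2 CPM and 96.5 ± 21.1 CPM (SD, n = 3 each), a log2 fold change of 0.35 (SE 0.27, adjusted p = 0.91 by edgeR), and 0.19 without sham replicate 2. Snhg1 (ENSMUSG00000108414.1, chromosome 19, 8723475 to 8726443, plus strand) stood at 42.2, 31.9 and 53.9 CPM in stimulated libraries, against 49.1, 19.9 and 46.1 CPM in sham libraries. Sham replicate 2 was again lowest, and the groups overlapped. Its log2 fold change was 0.15 (SE 0.36), and -0.15 without sham replicate 2.

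Lymphocyte markers were higher in 14 of 14 by fitted value, with summed levels of 2001, 2225 and 1685 CPM in stimulated and 1542, 265 and 2358 CPM in sham libraries, lowest where both hosts were lowest. The part of lymphocyte RNA in the levels of the hosts was not tested. The 3 genes with the pattern closest to Gas5 were Hspa9, a mitochondrial chaperone (distance 0.06), Hnrnpa2b1, an RNA-binding protein (0.06), and Ugcg, which makes glucosylceramide (0.08).

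Reads of both hosts came largely from transcripts annotated with a retained intron. In Gas5, 20 of 25 annotated transcripts are of this kind, and they took 81.3, 89.1 and 86.7% of its reads in stimulated and 80.4, 84.1 and 88.9% in sham libraries. The largest, of 2556 bases, held 39.9 ± 4.88% after stimulation and 39.2 ± 5.4% in sham (SD, n = 3 each). The mean difference of 1.24 percentage points for the retained-intron class had an exact permutation p of 0.7 and turned to -0.78 without sham replicate 1. In Snhg1, 14 of 18 transcripts are of this kind and took 85.0, 81.1 and 88.4% of its reads in stimulated and 81.7, 79.8 and 83.0% in sham libraries, a difference of 3.32 points (exact permutation p = 0.3, with 0.1 the smallest possible). The spliced Snhg1 RNA of 605 bases held 13 ± 1.43% after stimulation and 14.1 ± 5.11% in sham (SD, n = 3 each). Counted per length, the class took 60.8 ± 4.99% of Gas5 TPM in stimulated and 60.7 ± 3.35% in sham libraries, and 70.6 ± 15.5% of Snhg1 TPM in stimulated and 69.0 ± 4.52% in sham libraries (SD, n = 3 each), where the difference was 1.61 points (exact permutation p = 0.9). These annotated transcripts also contain snoRNA sequence: 16 of the 25 Gas5 and 11 of the 18 Snhg1 transcripts hold at least 1 whole hosted snoRNA, each of them of the retained-intron class, and reads over those bases were divided between snoRNA and host by the quantification.

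**Figure D4:**
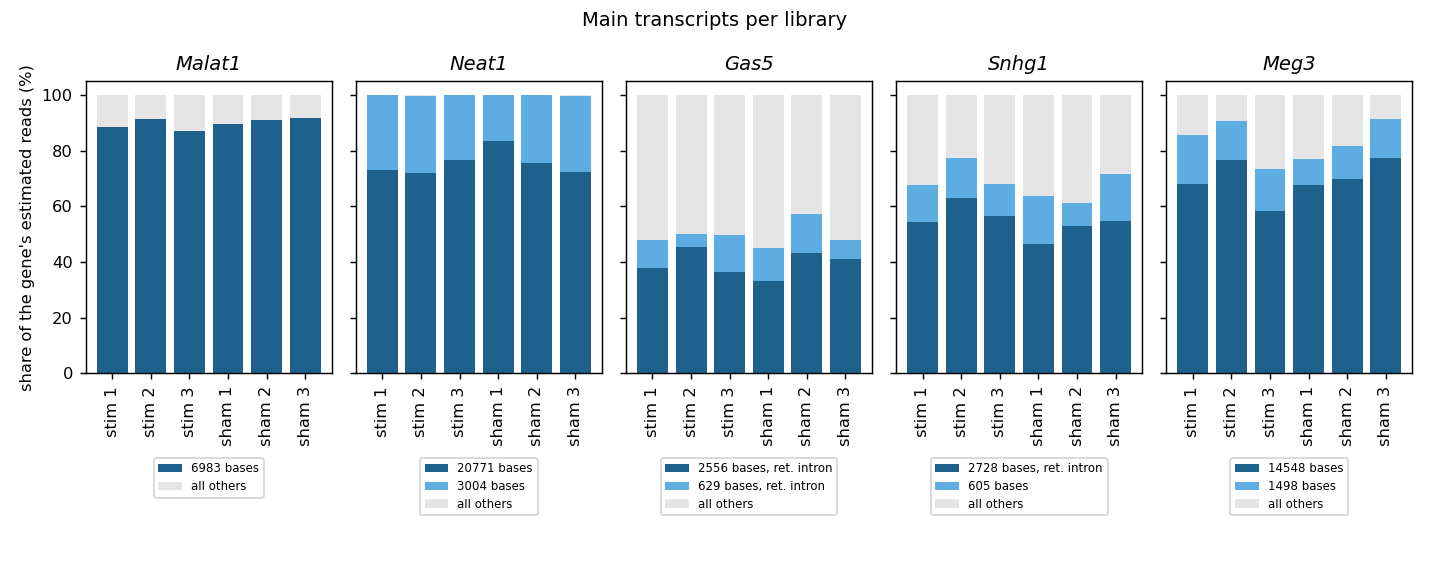
Share of each gene's estimated reads (percent, from 0) held by its main transcripts in each library, stimulated on the left, for the 5 genes with the clearest main transcripts; a main transcript held at least 10% of the reads on average. The long form of Neat1 takes 71.9 to 83.4% and the largest Gas5 transcript 33.1 to 45.5%, and stimulated and sham shares of both overlap. In Meg3 the 1498-base share is 14.2 to 17.9% in stimulated and 9.43 to 14.1% in sham libraries. The nearest values rest on 31.1 reads (stimulated replicate 2) and 29.1 reads (sham replicate 3). Its unadjusted p for usage was 0.407 by limma's diffSplice, and how many of all transcripts had shares apart was not counted.

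No transcript of the 8 genes was called for a change in usage. Of 50884 transcripts tested with limma's diffSplice, 2 (0.00393%) had an adjusted p under 0.05, in Setd5 and Aaed1. The tested transcripts numbered 4 for Malat1, 3 for Neat1, 6 for Meg3, 9 for Rian, 14 for Gas5 and 9 for Snhg1, each with an adjusted p of 1.0 by limma. Mirg had none that passed the filter, and Kcnq1ot1 has 1 transcript and so no usage to test.

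The snoRNAs inside Gas5 and Snhg1 had larger fitted fold changes than the hosts, although none of them passed the test either. Of the 18 annotated, 13 had a mean of at least 10 reads over the 6 libraries, a choice that used no group labels. All 13 had a higher mean CPM in stimulated than in sham libraries, with a median log2 ratio of 1.44, and 11 of the 13 (84.6%) had groups that did not overlap. Gm23212, Mir5117, Gm24453 and Gm23246, which are among the 11, had fewer than 10 reads in every sham library. They reached the mean of 10 through their stimulated reads, so their direction was in part set by that choice. Among all genes with that mean, 6.17% did not overlap in this direction. Other snoRNA genes leaned the same way: 219 of 232 had a higher mean, 90 (38.8%) did not overlap, and their median log2 ratio was 0.86. The lean was not particular to snoRNAs. Of 131 tested genes of small nuclear RNAs, 123 were higher by fitted value, with a median log2 fold change of 0.84, and 12.2% did not overlap in this direction. For all tested snoRNA genes these values were 234 of 250, 0.87 and 41.2%. The hosted snoRNAs are 13 members of a class that was higher as a whole, share 2 hosts, and were described after these values were seen, so no test of the set is given. In edgeR's quasi-likelihood test over all genes, 12 of the 18 passed the filter and 0 were called, 8 having an unadjusted p under 0.05. Of the 12, Gm23212, Mir5117 and Gm24453 reached the level of the filter in the stimulated libraries alone. Their direction was thus in part set by the filter, and they are among the 8.

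Snord47, in a late intron of Gas5, had 213, 228 and 234 reads in stimulated libraries, against 79.6, 26.1 and 138 reads in sham libraries. Its stimulated values were close together at 10.7, 9.76 and 9.99 CPM and lay above the sham values of 3.38, 1.3 and 6.41 CPM. The log2 fold change was 1.46 (SE 0.50, adjusted p = 0.62 by edgeR). Gm22357, the most abundant snoRNA of Gas5, stood at 50.0, 35.0 and 36.6 CPM in stimulated libraries, against 27.5, 10.4 and 23.5 CPM in sham libraries, again without overlap. Its log2 fold change was 0.99 (SE 0.36, adjusted p = 0.64 by edgeR). Snord80, which is annotated by 2 overlapping genes that can share reads, stood at 4.90, 3.35 and 4.55 CPM for the longer of them in stimulated libraries and 1.55, 0.325 and 2.63 CPM in sham libraries. The groups did not overlap, and the log2 fold change was 1.5 (SE 0.61).

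The other Gas5 snoRNAs of the 13 were Gm22489 at 1.16 (SE 0.45), Gm25789 at 0.92 (SE 0.51), Gm23212 at 1.61 (SE 0.57) and Mir5117, which the annotation lists as a snoRNA, at 2.00 (SE 0.71). Of all 7 in Gas5, Gm25789 was the 1 with overlapping groups, at 6.16, 4.73 and 3.71 CPM after stimulation and 2.58, 0.921 and 4.2 CPM in sham. The remaining 3 of the 10 annotated had means under 10 reads: Snord78 was at 0 in all 6 libraries, Gm26224 had 12.7 and 1.1 reads in stimulated replicates 1 and 2 and 0 elsewhere, and the shorter Snord80 gene had 8.05 reads in sham replicate 2 and 0 elsewhere.

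In Snhg1, Gm25855 stood at 4.32, 3.79 and 2.56 CPM in stimulated libraries, against 1.87, 0.487 and 1.58 CPM in sham libraries. These groups did not overlap, and the log2 fold change was 1.43 (SE 0.51, adjusted p = 0.64 by edgeR). Snord22, which alone had most of the snoRNA reads of Snhg1, stood at 605, 647 and 346 CPM in stimulated libraries, against 500, 123 and 399 CPM in sham libraries. It was the 1 snoRNA of 6 in Snhg1 whose groups overlapped, since stimulated replicate 3 lay below sham replicates 1 and 3, with a log2 fold change of 0.64 (SE 0.49). Gm25894 had 1.11 (SE 0.62), Gm24453 1.91 (SE 0.67) and Gm22744 1.13 (SE 0.54). Gm23246, which did not pass the filter of the fit, had 43.5, 5.48 and 17.4 reads in stimulated libraries and 2.58, 0 and 0 reads in sham libraries. The 2 others, Gm24452 and Gm22680, had means of 4.35 and 3.69 reads.

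**Figure D5:**
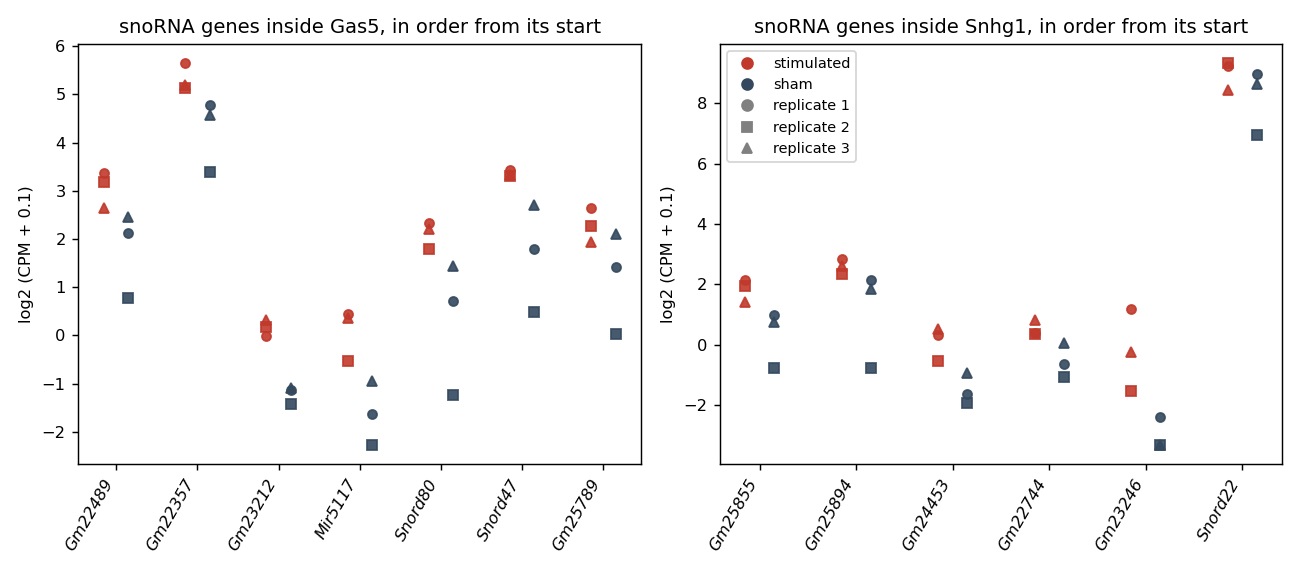
Log2 of CPM plus 0.1 for the 13 snoRNA genes with a mean of at least 10 reads inside Gas5 (left) and Snhg1 (right), in order from the start of the host, with 1 point per library, stimulated left of sham, and shapes for the replicates. The stimulated points lie above the sham points in 11 of 13, and sham replicate 2 (square) is lowest or level with the lowest in each.

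Set against their hosts, 100 reads of Gas5 were accompanied by 76.3, 58.4 and 42.4 reads of its snoRNAs in stimulated libraries, against 40.2, 20.8 and 40.0 in sham libraries. The groups did not overlap, but stimulated replicate 3 was close to sham replicates 1 and 3. For Snhg1 without Snord22 the ratio was 37.5, 26.3 and 22.9 per 100 host reads after stimulation and 17.8, 8.23 and 14.5 in sham, also without overlap. With Snord22 it was 1405, 1577 and 637 after stimulation and 1207, 652 and 897 in sham, with overlap. Exact permutation of 3 against 3 gave p = 0.1, the smallest possible, for Gas5 and for Snhg1 without Snord22, and p = 0.5 for Snhg1 with it. These ratios were formed after the values were seen, so the p-values support nothing.

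Sham replicate 2 was low for snoRNAs in general. All snoRNA genes together took 1.18, 1.10 and 0.731% of reads in stimulated libraries, against 0.776, 0.264 and 0.788% in sham libraries, and transcripts under 200 bases took 7.36, 8.79 and 6.93% against 5.57, 4.49 and 8.10%. The part of this difference in short RNA content in the values of the hosted snoRNAs was not tested. Without sham replicate 2 all 13 hosted snoRNAs had a higher mean after stimulation, with a median log2 ratio of 1.03. For the 232 other snoRNA genes the median was 0.51, with 210 higher. Of the hosted snoRNAs 11 did not overlap, beside 90 of the 232 others. Groups that are apart stay apart, in the same direction, when a library is left out. The count of 11 could therefore not fall, and the direction of those 11 was fixed. Leaving out any 1 of the other 5 libraries kept 13 of 13 higher, with medians of 1.28 to 1.6. Neutrophil markers, 12 of 12 higher with summed levels of 227 to 313 CPM in stimulated and 110 to 113 CPM in sham libraries, also separated the groups, and their part was not tested.

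Genes that act with the hosts were higher in most cases by fitted value, with none called. Other noncoding snoRNA hosts were higher in 13 and lower in 4 of 17, with a median of 0.27 and 0 called. The median was 0.13 without sham replicate 2 and 0.51 without sham replicate 3. Snhg17 stood at 33.8, 28.6 and 24.4 CPM in stimulated libraries and 21.9, 15.1 and 18.6 CPM in sham libraries (0.64, SE 0.25), without overlap. Snhg18 went against the list at 1.11, 1.13 and 0.884 CPM after stimulation and 2.13, 2.60 and 2.42 CPM in sham (-1.19, SE 0.39), also without overlap. Neither passed edgeR's quasi-likelihood test, with an adjusted p of 0.67 for Snhg17 and 0.59 for Snhg18.

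Genes of the snoRNP particles and the nucleolus were higher in 13 and lower in 3 of 16, with a median of 0.32 and 0 called. Nop2, an rRNA methyltransferase, stood at 27.1, 20.9 and 27.2 CPM in stimulated libraries, against 11.9, 16.5 and 19.7 CPM in sham libraries, groups that did not overlap (0.64, SE 0.27). Fbl, the methyltransferase of box C/D particles, had 0.41 (SE 0.32) with overlap. Protein genes with a 5′ pyrimidine tract outside the ribosome were higher in 20 of 20 by fitted value, with a median of 0.20, 0 with groups apart and 0 called. Pabpc1, the poly(A)-binding protein, had 0.43 (SE 0.33) and stood at 283 CPM in sham replicate 2 against 500 to 700 CPM elsewhere. Without sham replicate 2 the median of this list was 0.01 and that of the snoRNP list 0.14, and without sham replicate 3 that of this list was 0.54. Nonsense-mediated decay genes were higher in 8 and lower in 8 of 16, with a median of 0.06 and 0 called, -0.06 without stimulated replicate 2 and 0.27 without sham replicate 3. Smg1, the kinase that starts decay, had 0.34 (SE 0.28).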

How the data were processed

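Total RNA of the sorted cells was made into stranded libraries, per the labels' protocols, with groups read from the titles. Per the submitters' processing notes, the tools were Salmon 0.8.2, Trimmomatic 0.36, bcl2fastq 2.17.1.14, edgeR and R 3.5.1 on build GRCm38, with settings not given in the sources. Estimated counts per gene were deposited by the authors in 1 table, together with transcript files per library that give, per the file headers, length, TPM and estimated counts of reads for 135181 transcripts. The gene values follow TPM scaled by length and library, so they were also compared with summed transcript reads.

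Estimated counts were rounded, filtered with filterByExpr (minimum count 10, minimum total 15) and scaled by TMM, and the groups were compared in R 4.3.3 by the robust quasi-likelihood test of edgeR 4.0.16 with Benjamini-Hochberg adjustment at 0.05 over 26559 genes. The SE is the fold change divided by the square root of F. Usage was tested with limma's diffSplice (limma 3.58.1) on voom values. All tests were also run on simulated counts with 200 changed genes. Single shares were compared by exact two-sided permutation. Annotation was GENCODE M21. The members and lists were chosen with earlier results of these data known. Named from each of 10 lists were up to 4 genes by unadjusted p, of which the text gives a part, and, by root mean square distance, the 3 genes most like Malat1, Meg3 and Gas5. Snord78, Gm26224, Gm23212, Gm24452, Gm24453, Gm22744, Gm22680, Gm23246, Mir5117, Setd5, Aaed1, Dleu2, Igf2r, Airn, Slc22a18, Zim1 and Plagl1 were named after their values were seen. P-values measure the spread between 3 libraries per group. The alternatives are other size factors, other filters, each library left out, a replicate block, summed reads, mitochondrial and ribosomal RNA genes left out, limma voom and DESeq2 1.42.0.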

Additional observations from a re-analysis of the deposited data

How the results depend on the processing

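The 8 genes stayed uncalled under every alternative run. Leaving out 1 library gave log2 fold changes of 0.24 to 0.42 for Malat1, 0.19 to 0.5 for Gas5, -0.15 to 0.34 for Neat1, -1.5 to 0.20 for Meg3, -0.98 to 0.18 for Rian, -0.67 to 0.64 for Mirg, -0.15 to 0.37 for Snhg1 and -0.06 to 0.12 for Kcnq1ot1. Apart from this, Neat1 (-0.03) and Mirg (0.21) turned with summed reads and Kcnq1ot1 (-0.01) with library totals alone. Genes called higher over the whole table numbered 0, but 3 with RLE size factors, 44 without a filter, 1 with summed reads, 71 with DESeq2 and 0 to 1 with a library left out. Those called lower numbered 0, but 65 without a filter and 158 with DESeq2, and 0 with any library left out. Transcripts called for usage numbered 2, and 1 with a filter of 1 CPM or 1 to 3 with a library left out. The retained-intron difference ran from -0.78 to 3.44 points in Gas5, turning without stimulated replicate 2 (-0.457) or sham replicate 1 (-0.78), and from 1.55 to 5.17 in Snhg1. The Neat1 long-form difference ran from -5.51 to 0.059 points. In alternatives chosen after seeing the data, the 12 tested hosted snoRNAs were all higher in each except the filter of 1 CPM, which left 9, all higher. These counts were in part set by the filters. Gm23212, Mir5117 and Gm24453 passed the main filter, and Gm22744 that of 1 CPM, through the stimulated libraries alone. The medians of the tested hosted snoRNAs were 0.96 to 1.58 with a library left out. The cause of these shifts was not tested. Replicate numbers share only a number: deviations of same-numbered libraries correlated at 0.32, -0.16 and 0.13, and with the replicate number as a block 0 genes were called in either direction, Malat1 had 0.33, Meg3 -0.67 and Gas5 0.36, and 2 transcripts were called for usage. Mirg, with 15 to 52 reads per library, had the fewest reads of the 8, and Mirg and Meg3 shared the largest SE (0.70).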
